A study of Mus musculus with 3 samples.

Results

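The zinc finger homeobox genes of the Zeb, Zfhx and Tshz families were examined in developing SST+ neurons of the mouse neocortex (NCx). The 8 members, Zeb1, Zeb2, Zfhx2, Zfhx3, Zfhx4, Tshz1, Tshz2 and Tshz3, were chosen by name and were all present among the 31053 genes of the count matrices. Their UMI counts (unique molecular identifiers, one per captured RNA molecule) were read from single-cell libraries of GFP+ cells sorted from SstCre/+;RCEfl/+ mice. In these mice Cre is made from the Sst locus and permanently turns on the RCE reporter, so GFP also marks cells that expressed Sst only earlier. All 3 groups carried the same alleles and differed in age. The E16.5 library pooled the NCx of 6 animals and the P1 and P5 libraries pooled 3 animals each, with 1 library per stage. Tissue of P5 alone was also treated with trypsin and DNase, P1 and P5 cells went through a Percoll step, and P1 was processed with another version of the alignment software. Stage, library, pooled animals and dissociation therefore cannot be told apart, no test of stage was possible, and the intervals given are 95% intervals that cover counting error only.

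Cells with over 700 genes and under 10% mitochondrial UMIs were kept, which left 3952, 2501 and 2980 cells from the youngest to the oldest library, with medians of 5577, 3293 and 3935.5 UMIs. They were split by 2 genes. Cells with at least 1 UMI of Nos1, the neuronal nitric oxide synthase that marks long-range projecting (LRP) SST+ neurons, numbered 67, 434 and 547 in the E16.5, P1 and P5 libraries. Cells with Lhx6, the LIM homeobox gene of neurons born in the medial ganglionic eminence (MGE), and without Nos1 numbered 3269, 1606 and 1874. The remaining 616, 461 and 559 cells had a UMI of neither gene. Sst had a UMI in 82.1%, 90.8% and 96.0% of Nos1 cells and in 76.3%, 71.0% and 70.9% of Lhx6 cells without Nos1. Markers of LRP neurons, Npy and Chodl among them, summed to 13847, 27901 and 38811 CPM (UMIs of a gene per 1000000 UMIs of all genes, summed over the cells of a class) in Nos1 cells against 1943, 1564 and 1129 CPM in Lhx6 cells. Most of the sum in Nos1 cells was Npy, at 11943, 22877 and 34557 CPM in those without a Zeb1 UMI. Those with a Zeb1 UMI held 13982, 30644.5 and 34874 CPM of Npy. Markers of excitatory neurons reached 614 CPM in the Nos1 cells of E16.5, 159.9 CPM at P1 and 6.11 CPM at P5, against 8.76, 9.61 and 2.92 CPM in Lhx6 cells, and members whose values differed once cells with such markers were left out are named below. A stricter filter of over 1000 genes and under 5% mitochondrial UMIs left 673 of the 2501 P1 cells and moved several P1 values, which are given beside the results. Pairs of libraries shared between 1 and 6 cell barcodes.

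Proteins of this class carry several C2H2 zinc fingers together with one or more homeodomains, or an atypical one, and bind DNA mainly as repressors. Zeb proteins bind E-box motifs through a cluster of zinc fingers near each end and recruit corepressors such as CtBP, and are best known for switching off epithelial genes when cells lose their junctions. In interneurons of the MGE, Zeb2 acts below the Dlx factors and is needed for young cells to turn from the striatum towards the NCx. The very large Zfhx proteins have several homeodomains, and the Tshz proteins are the vertebrate relatives of Drosophila Teashirt.

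Across these genes, members of the same family differed in opposite directions between the Nos1 cells and the Lhx6 cells without Nos1. This order is between classes. Nos1 cells themselves had more Zeb2 than Zeb1 UMIs in each library, at 291 against 11, 1035 against 112 and 263 against 121. Zeb1 and Tshz2 were higher in Nos1 cells in all 3 libraries, by 7.61-fold and 26.0-fold at P5, whereas Zeb2 and Tshz3 were lower in all 3, by 5.19-fold and 4.96-fold at P5. Zfhx2 was near equal in both classes. Zfhx3 and Zfhx4 were rare in both, Tshz1 was lower in Nos1 cells at E16.5 and P1 only, and these 3 genes had their highest levels in a small group of cells with markers of the Meis2 type. Zeb1, Zeb2 and Tshz2 belong to genes that the study selected on these same cells, so their direction here is not independent evidence.

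**Figure D1:**
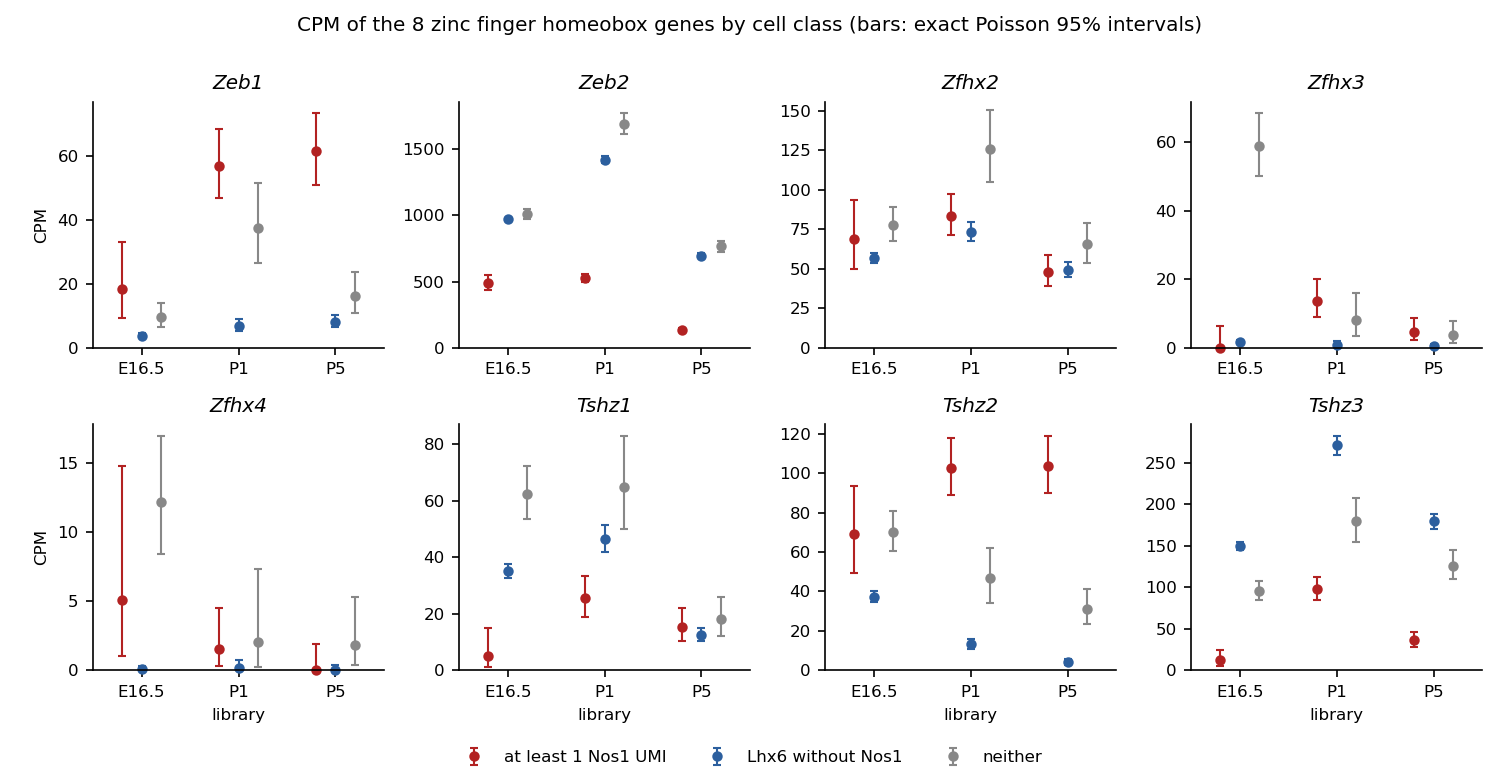
Level of each member by library. The y axis is CPM on a linear scale from 0 that differs between panels, points are the summed UMIs of Nos1 cells (red), Lhx6 cells without Nos1 (blue) and cells with neither (grey), and bars are exact Poisson 95% intervals. The red points lie above the blue ones for Zeb1 and Tshz2 and below them for Zeb2 and Tshz3 at every stage.

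Zeb2 (GRCm38 chr2:44983632-45117395, minus strand) was the member with a UMI in most Lhx6 cells. In Lhx6 cells without Nos1 it stood at 970.5 CPM at E16.5 (957 to 984), 1422 CPM at P1 (1396 to 1448) and 695 CPM at P5 (678 to 712), with a UMI in 91.2%, 92.7% and 87.9% of cells. In Nos1 cells it stood at 489.8 CPM (435 to 549), 525.5 CPM (494 to 559) and 134 CPM (118 to 151), with a UMI in 52.2%, 36.2% and 14.6% of cells. No Nos1 interval overlapped the Lhx6 interval of its library. The ratio of Nos1 to Lhx6 cells on the log2 scale was −0.99 at E16.5 (−1.16 to −0.82), −1.44 at P1 (−1.53 to −1.34) and then −2.38 at P5 (−2.56 to −2.20). Under the stricter filter the P1 level of the Nos1 cells was 220.2 CPM and the P1 ratio −2.74, and without cells with markers of other types the E16.5 and P1 ratios were −1.16 and −1.70. Cells with neither gene held 1014, 1696 and 766 CPM, above the Lhx6 cells of their library, with intervals that overlapped at E16.5 alone. With every cell thinned to 2000 UMIs, the shares were 76.8%, 85.0% and 68.6% in Lhx6 cells and 40.0%, 30.9% and 11.6% in Nos1 cells, so that the order of the classes was the same at equal depth.

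Zeb1 (chr18:5591860-5775467, plus strand), the paralog that restrains the differentiation of neural progenitors, showed the reverse order. In Lhx6 cells without Nos1 it was rare, at 3.77 CPM at E16.5 (2.99 to 4.69), 6.87 CPM at P1 (5.17 to 8.94) and 8.10 CPM at P5 (6.37 to 10.2). In Nos1 cells it stood at 18.5 CPM from 11 UMIs (9.24 to 33.1), 56.9 CPM (46.8 to 68.4) and 61.6 CPM (51.1 to 73.6). The Nos1 level was thus 4.91-fold higher at E16.5 (2.36 to 9.27), 8.28-fold at P1 (5.95 to 11.7) and 7.61-fold at P5 (5.66 to 10.3). Under the stricter filter Lhx6 cells held 16.5 CPM at P1 and the P1 ratio was 2.21 on the log2 scale in place of 3.05. A UMI of Zeb1 was found in 14.9%, 20.5% and 17.6% of Nos1 cells, with median depths of 7863, 3704.5 and 3073 UMIs. The share was 2.20%, 3.11% and 3.52% in Lhx6 cells, with median depths of 5808, 3811 and 4752.5 UMIs, the lowest of the 3 classes that split the kept cells, and the Nos1 share was read against it. Some smaller groups cut from these classes by further markers had lower shares, such as 1.36% in the E16.5 Lhx6 cells with both Reln and Erbb4. Whether free RNA gave the low share was not tested. At 2000 UMIs per cell the Nos1 shares were 6.15%, 13.5% and 9.18% and the Lhx6 shares 0.742%, 1.83% and 1.31%.

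The balance within the family shifted accordingly. In Lhx6 cells there were 258 Zeb2 UMIs for each Zeb1 UMI in the E16.5 library, 207 in P1 and 85.8 in P5. In Nos1 cells the ratio was 26.5, 9.24 and 2.17, and among the 384 P5 cells with 5 or more Nos1 UMIs it was 0.683 (0.498 to 0.932), with 71 Zeb2 UMIs against 104 Zeb1 UMIs. These are ratios of captured 3′ ends and are compared between classes, not read as relative amounts of the 2 transcripts.

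Zeb1 and Zeb2 also share a dense set of 3′ UTR sites for the miR-200 family, the miRNAs known to oppose Zeb expression in epithelia, and these are shown because few UTRs of their length hold as many. The 5 mature miRNAs, from RefSeq (GRCm38.p6), fall into a pair of seed groups, with the seed (bases 2 to 8) in capitals.
mmu-miR-200b-3p: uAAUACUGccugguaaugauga
mmu-miR-200c-3p: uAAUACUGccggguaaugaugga
mmu-miR-429-3p: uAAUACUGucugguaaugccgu
mmu-miR-200a-3p: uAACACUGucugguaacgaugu
mmu-miR-141-3p: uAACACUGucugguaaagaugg
The 7-base matches to these seeds are CAGTATT and CAGTGTT, read on the transcript strand of the annotated 3′ UTR (GENCODE M21). Zeb1 held 9 matches in 2401 bases, 5 of the first and 4 of the second motif, and Zeb2 held 8 in 1450 bases, 5 and 3. UTRs of similar length, from 0.8 to 1.25 times, held a median of 0 matches, and 99.96% of the 2451 such UTRs for Zeb1, as of the 2849 for Zeb2, held fewer. One example of each motif from Zeb2 is given on the minus strand with the match in capitals.
Zeb2 site, chr2:44988173-44988197: cccgcactaccatacatCAGTATTt
Zeb2 site, chr2:44988357-44988381: tatgcaaaaattttgtaCAGTGTTa
Zfhx3 held 2 matches and Tshz3 1, no match lay in Zfhx2, Tshz1 or Tshz2, and the annotated UTR of Zfhx4 spans 18 bases and allowed no reading. Of 20660 UTRs, 23.7% held at least 1 match. Mature miRNAs were not measured in these libraries, and a match is a string of letters, not evidence of binding.

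The Tshz family divided in the same way. Tshz2 (chr2:169633013-170071816, plus strand) was present in Nos1 cells at 69.0 CPM at E16.5 (49.5 to 93.6), 103 CPM at P1 (88.9 to 118) and 104 CPM at P5 (90.1 to 119). In Lhx6 cells it stood at 37.4 CPM (34.8 to 40.1), 13.1 CPM (10.7 to 15.9) and 4.0 CPM (2.81 to 5.51). The Nos1 level was higher in each library, and the gap widened as the Lhx6 level became lower, from 1.85-fold at E16.5 (1.31 to 2.53) to 7.82-fold at P1 (6.15 to 10.0) and 26.0-fold at P5 (18.2 to 38.0). The E16.5 ratio of 0.88 on the log2 scale was 1.42 without cells with markers of other types, and the Lhx6 level at P1 was 30.6 CPM under the stricter filter, with a P1 ratio of 2.27 in place of 2.97. A UMI was found in 34.3%, 30.2% and 26.7% of Nos1 cells and in 13.1%, 3.99% and 1.76% of Lhx6 cells. At equal depth these shares were 13.8%, 19.9% and 15.5% against 5.74%, 2.36% and 0.658%.

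Tshz3 (chr7:36698118-36773553, plus strand), a gene required in projection neurons of the cortex and in striatal cholinergic neurons, had the opposite order. Lhx6 cells held 149.8 CPM at E16.5 (145 to 155), 271 CPM at P1 (260 to 283) and 179 CPM at P5 (171 to 188). Nos1 cells held 11.8 CPM from 7 UMIs (4.74 to 24.3), 97.5 CPM (84.2 to 112) and 36.2 CPM (28.3 to 45.6). The Nos1 level was lower by 12.7-fold (6.16 to 31.7), 2.78-fold (2.40 to 3.24) and 4.96-fold (3.91 to 6.38), so the difference was widest at E16.5, where the Nos1 value rested on few UMIs. Under the stricter filter the P1 levels were 183 CPM in Lhx6 cells and 44.97 CPM in Nos1 cells and the P1 ratio −2.02 on the log2 scale in place of −1.48. The UMI ratio of Tshz3 to Tshz2 was 4.01, 20.7 and 44.9 in Lhx6 cells and 0.171, 0.950 and 0.348 in Nos1 cells.

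The starts of Tshz2 and Tshz3 differ in base composition, and both are printed because the genes lie on opposite sides of the comparison. Each is the 250 bases before the RefSeq start (GRCm38.p6, plus strand for both), with CpG dinucleotides in capitals.
Tshz2, chr2:169632259-169632508: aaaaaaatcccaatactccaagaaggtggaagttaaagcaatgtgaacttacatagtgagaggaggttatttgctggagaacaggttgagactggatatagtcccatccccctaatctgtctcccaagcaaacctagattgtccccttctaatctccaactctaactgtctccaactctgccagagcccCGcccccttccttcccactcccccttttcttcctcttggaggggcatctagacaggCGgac
Tshz3, chr7:36697868-36698117: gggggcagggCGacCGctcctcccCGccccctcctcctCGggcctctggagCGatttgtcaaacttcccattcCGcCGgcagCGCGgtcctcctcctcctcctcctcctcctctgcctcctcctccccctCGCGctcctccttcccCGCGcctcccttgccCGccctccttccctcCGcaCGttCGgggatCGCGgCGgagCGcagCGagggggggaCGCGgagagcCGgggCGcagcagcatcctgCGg
The Tshz2 start held 2 CpG and the Tshz3 start 27, against a median of 6 over 32851 promoters, and 18.8% and 91.4% of promoters held fewer. The RefSeq start of Tshz2 lies upstream of its GENCODE M21 start at chr2:169633013, whereas that of Tshz3 is its GENCODE start. The windows are thus unlike in their distance from the annotated locus. The Zeb-type E-box CACCTG, searched on both strands, was present in 0 of the 8 starts listed for 5 of the 8 members and in 17.2% of all promoters, which says only that these letters were not in those windows.

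Tshz1 (chr18:84011627-84087706, minus strand), needed for the radial migration of olfactory bulb interneurons, did not follow either. It stood at 34.9, 46.3 and 12.4 CPM in Lhx6 cells and at 5.05 CPM from 3 UMIs, 25.4 and 15.3 CPM in Nos1 cells. The log2 ratio was −2.79 at E16.5 (−5.07 to −1.24), −0.87 at P1 (−1.32 to −0.44) and 0.30 at P5, where the interval of −0.33 to 0.89 included no difference.

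Among the Zfhx genes, Zfhx2 (chr14:55060262-55092324, minus strand), a gene with a role in pain sensing, had similar levels in both classes. It stood at 69.0, 83.3 and 47.9 CPM in Nos1 cells and at 56.6, 73.2 and 49.1 CPM in Lhx6 cells. The log2 ratio was 0.29 (−0.20 to 0.73), 0.19 (−0.07 to 0.44) and −0.04 (−0.37 to 0.29), so differences over 1.66-fold at E16.5 and 1.36-fold at P1 lay outside the interval. At E16.5 the sign turned, to −0.28, without the cells that carried markers of other types. An antisense gene, Zfhx2os, overlaps 15612 bases of the Zfhx2 locus, and Zeb2os lies wholly within Zeb2. Their reads may not be separable, because the strand setting of the counting is not given in the sources used here, although Zeb2os itself was counted at only 9.61 to 13.3 CPM in Lhx6 cells.

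Zfhx3 (chr8:107942644-108961630, plus strand), a giant transcription factor of the circadian clock nucleus and of striatal neurons, was detected in few cells. Nos1 cells held 0 UMIs at E16.5, 27 at P1 (13.7 CPM) and 9 at P5 (4.58 CPM). Lhx6 cells held 35, 7 and 4 UMIs (1.65, 0.874 and 0.432 CPM), of which 15 of the 35 came from a single E16.5 cell. At E16.5 the Nos1 cells had a count of 0, where a floor of 3 UMIs is 5.05 CPM. This is above the level of the Lhx6 cells, so no direction could be read. The Nos1 level was 15.7-fold higher at P1 (6.66 to 42.7) and 10.6-fold higher at P5 (2.96 to 47.2). On the log2 scale the P1 ratio of 3.97 was 1.97 under the stricter filter. Zfhx4 (chr3:5218526-5415857, plus strand) had 3, 3 and 0 UMIs in Nos1 cells and 1, 1 and 0 in Lhx6 cells, and was not detectable at this depth beyond those counts.

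Set beside all genes, the members were spread to both ends. For genes with at least 10 UMIs in both classes together, the log2 ratio was taken of CPM plus 1, and a difference of at least 2-fold was counted. Of the 7 members that passed this filter (all but Zfhx4), 1 was higher in Nos1 cells at E16.5, Zeb1, where 6.45% of 13574 genes were. A further 3 were lower, Tshz3, Tshz1 and Zfhx3, where 8.69% of genes were, although the Zfhx3 value reflects only the count of 0 described above. Just inside the limit were Zeb2, at −0.99, and Tshz2, at 0.87, and with cells of other types left out Tshz2 was also counted as higher and Zeb2 as lower. At P1, 3 members were higher, Zfhx3, Zeb1 and Tshz2, against 4.33% of 13025 genes, and 2 were lower, Tshz3 and Zeb2, against 3.72%. At P5 the same 3 were higher, against 4.22% of 13415 genes, and the same 2 were lower, against 7.08%. Zfhx3 passed the filter at P1 and P5 only with the UMIs of the Nos1 cells, where it was high. The median log2 ratio of the passing members was −0.99, 0.18 and 0.28, and that of all genes was −0.05, −0.03 and −0.07. At P5, 99.87% of genes had a lower ratio than Tshz2 and 99.52% a higher ratio than Zeb2.

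**Figure D2:**
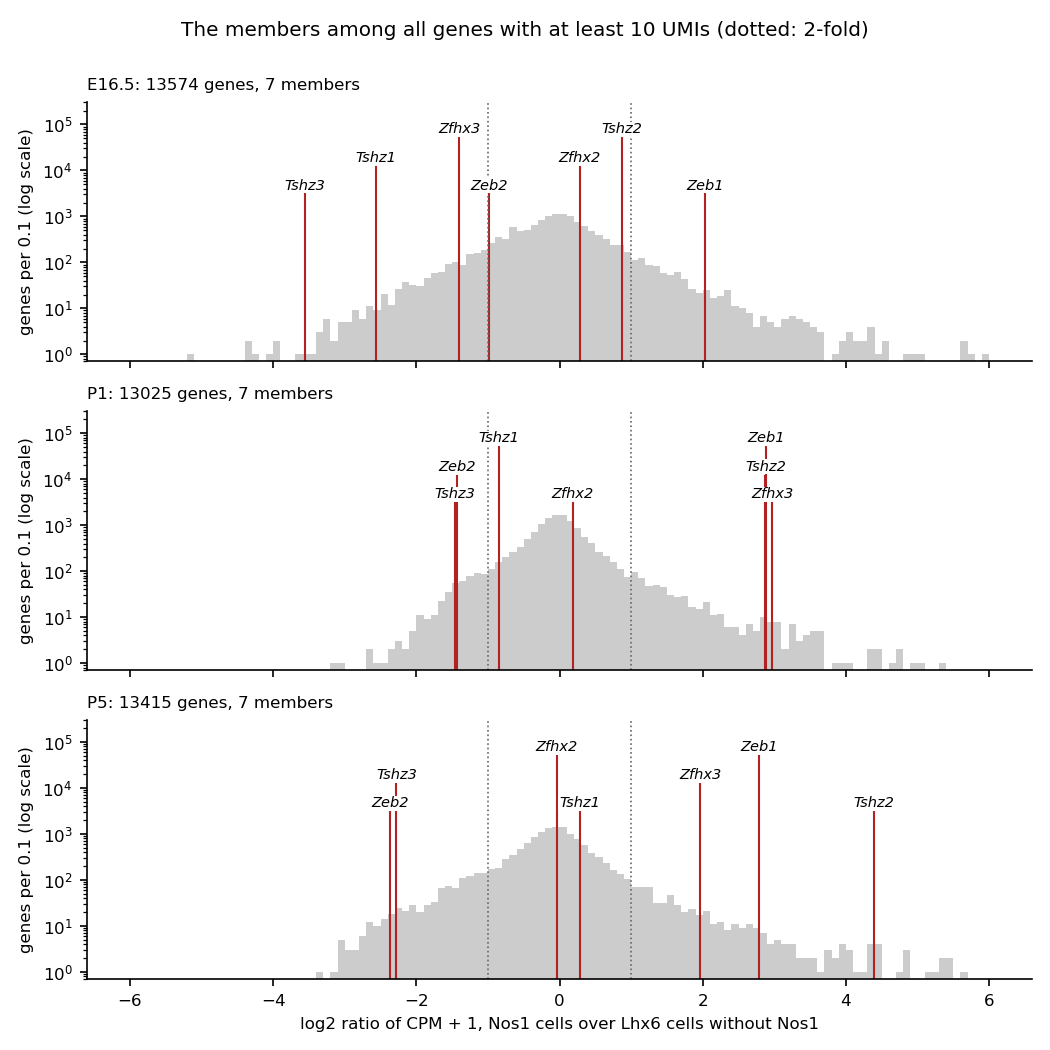
Members among all genes with at least 10 UMIs. The x axis is the log2 ratio of CPM plus 1 in Nos1 cells over Lhx6 cells without Nos1, the y axis is the number of genes per step of 0.1 on a log scale, with 1 panel per library, red lines are the members and dotted lines mark 2-fold. Tshz2 moves from 0.87 at E16.5 to 4.39 at P5, and Zeb2 from −0.99 to −2.37.

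The Nos1 class was then divided by its own Nos1 count, because the class takes in cells with a single UMI. This division was chosen after seeing the data. At E16.5, 38 cells had 1, 21 had 2 to 4, and 8 had 5 or more Nos1 UMIs. The same bins held 126, 80 and 228 cells at P1 and 81, 82 and 384 cells at P5. Markers of LRP neurons were higher in the last bin than in the first, from 9166 to 18979 CPM at E16.5, from 7128 to 41086 CPM at P1 and from 9505 to 45343 CPM at P5. Npy alone gave 8130, 5925 and 8445 CPM of the sums in the first bin. Excitatory markers went from 779 to 299, from 344 to 7.63 and from 25.5 to 0 CPM.

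The point values of Zeb2 became lower with each step in all 3 libraries and those of Tshz3 did so at P1 and P5. Zeb2 stood at 1257, 392 and 112 CPM in the P1 bins and at 511, 167.5 and 48.7 CPM at P5. At E16.5 it stood at 668 and 468 CPM in the first bins and had 0 UMIs in the 8 cells with 5 or more Nos1 UMIs, which at a floor of 3 UMIs is at least 35.7-fold lower than in Lhx6 cells. Of the 75 UMIs in the E16.5 bin of 2 to 4, 41 came from 1 cell, and its interval overlapped that of the first bin. The step from 1 to 5 or more Nos1 UMIs was −3.48 on the log2 scale at P1 (−3.77 to −3.20) and then −3.39 at P5 (−3.82 to −2.98). Cells with 1 Nos1 UMI lay below the Lhx6 cells in each library, at 668 CPM (582 to 763) against 970.5 CPM at E16.5, 1257 CPM (1172 to 1347) against 1422 CPM at P1 and 511 CPM (435 to 596) against 695 CPM at P5, and no interval overlapped that of the Lhx6 cells. Tshz3 stood at 191, 119 and 34.3 CPM at P1 and at 109, 57.6 and 17.8 CPM at P5, a step of −2.48 (−3.06 to −1.93) and −2.61 (−3.40 to −1.83). At E16.5 it had 5, 2 and 0 UMIs in the bins, too few to order them.

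At P1 and P5, Zeb1 and Tshz2 were lowest in the cells with 1 Nos1 UMI and then level. Zeb1 stood at 17.1, 86.4 and 73.4 CPM at P1 and at 9.58 CPM from 3 UMIs, 73.3 and 71.3 CPM at P5. Tshz2 stood at 37.3, 112 and 140.1 CPM at P1 and at 35.1, 152 and 112 CPM at P5. The last 2 bins had overlapping intervals for both genes in both libraries. At E16.5 no such order could be read, since Zeb1 had 4, 2 and 5 UMIs (12.4, 12.5 and 45.3 CPM) and Tshz2 had 21, 12 and 8 UMIs (64.9, 74.8 and 72.5 CPM), with intervals that overlapped across all 3 bins. In the cells with 5 or more Nos1 UMIs, Zeb1 was 10.7-fold above the Lhx6 cells at P1 (log2 3.42, 2.90 to 3.94) and 8.80-fold at P5, and Tshz2 was 10.7-fold and 28.1-fold above them. Zeb2 was 12.6-fold and 14.3-fold below them and Tshz3 was 7.91-fold and 10.1-fold below them. Zfhx2 was level across the bins, at 85.6, 97.2 and 78.2 CPM at P1 and at 47.9, 36.7 and 49.4 CPM at P5.

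**Figure D3:**
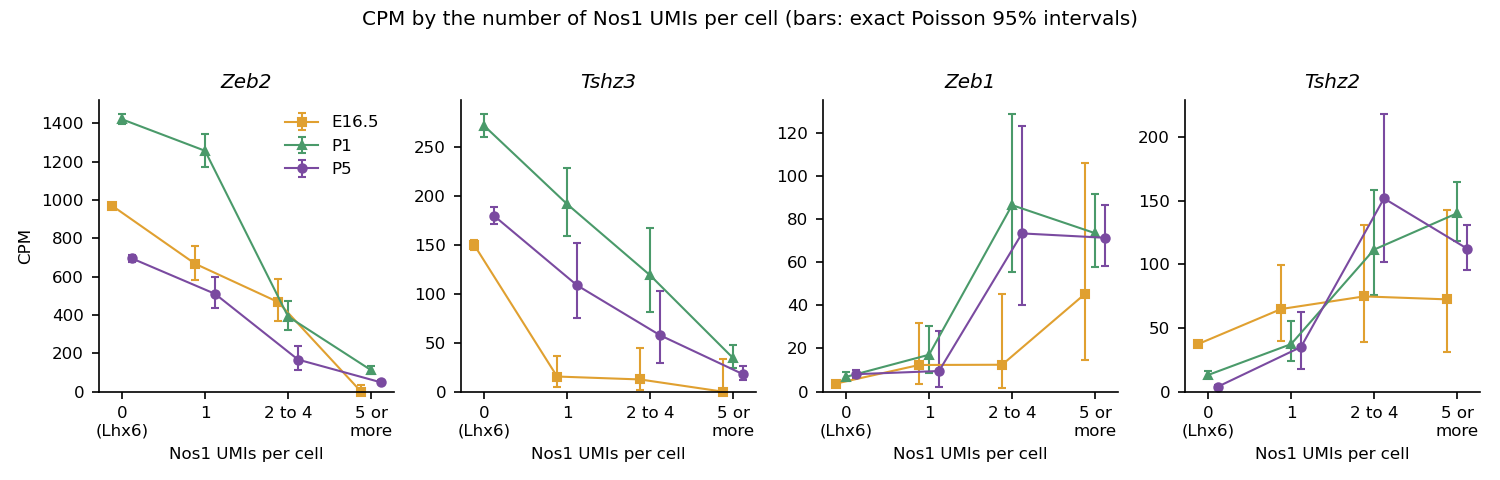
Level of the opposed members by the number of Nos1 UMIs per cell. The x axis gives Lhx6 cells without Nos1 and then cells with 1, 2 to 4, and 5 or more Nos1 UMIs, the y axis is CPM on a linear scale that differs between panels, colours are the libraries and bars are exact Poisson 95% intervals. Zeb2 goes from 1257 to 112 CPM and Tshz3 from 191 to 34.3 CPM between the first and last Nos1 bin at P1, while at P1 and P5 Zeb1 and Tshz2 are at their lowest in Lhx6 cells and cells with 1 Nos1 UMI. At E16.5 the Nos1 bins of Zeb1 and Tshz2 overlap.

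Single cells gave the same contrast for the Zeb pair. In Lhx6 cells without Nos1, a UMI of Zeb2 alone was found in 89.7%, 90.5% and 85.2% of cells in order of age. Both genes were found in 48, 35 and 50 cells, and Zeb1 alone in 24, 15 and 16 cells. Among Nos1 cells, Zeb2 alone was found in 47.8%, 31.8% and 13.2%, Zeb1 alone in 10.4%, 16.1% and 16.1%, and both in 3, 19 and 8 cells. In P5 cells with 5 or more Nos1 UMIs, Zeb1 alone was in 76 cells, Zeb2 alone in 19 and both in 5, and 284 of the 384 cells had neither.

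Cells with both genes were somewhat fewer than the product of the 2 shares would give. The observed over expected number in Lhx6 cells was 0.73 at E16.5 (0.54 to 0.97), 0.76 at P1 (0.53 to 1.05) and then 0.86 at P5 (0.64 to 1.13), and only the first interval excluded 1. In other words, Zeb2 was found in 66.7%, 70.0% and 75.8% of Lhx6 cells with Zeb1 and in 91.7%, 93.4% and 88.3% of those without it. In Nos1 cells the ratio was 0.57 (0.12 to 1.61), 0.59 (0.36 to 0.91) and 0.57 (0.25 to 1.11). Within the cells with 5 or more Nos1 UMIs it was 0.74 at P1 (0.34 to 1.37) and then 0.99 at P5 (0.32 to 2.28), so inside this narrower class a shortfall was not detectable at this depth.

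**Figure D4:**
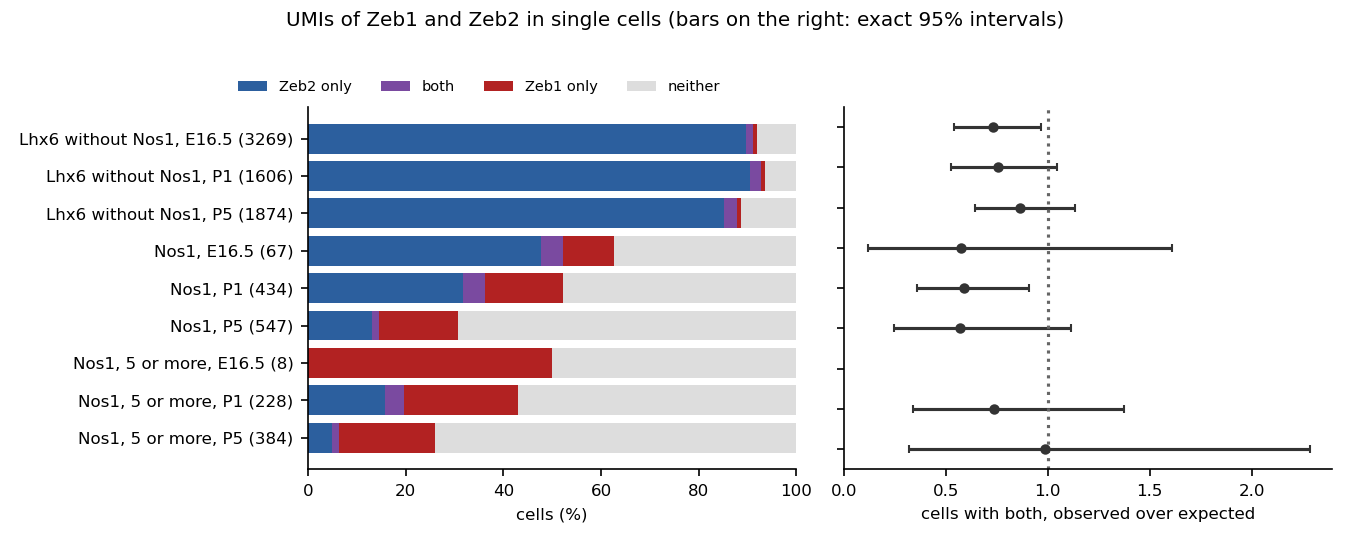
Zeb1 and Zeb2 in single cells. Left, the percentage of cells with a UMI of Zeb2 only, both, Zeb1 only or neither, by class and library, with the number of cells in brackets. Right, the number of cells with both over the number expected from the separate shares, with exact 95% intervals and a dotted line at 1. Zeb2 only fills 85.2% to 90.5% of Lhx6 cells and 13.2% of Nos1 cells at P5.

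The Lhx6 cells with a Zeb1 UMI (72, 50 and 66 cells at the 3 ages) differed from the rest of their class in other genes. Tshz2 stood at 98.6, 55.4 and 23.2 CPM in them against 35.7, 12.0 and 3.16 CPM in Lhx6 cells without Zeb1. Npy stood at 4061, 4847 and 1375 CPM against 1570, 1115 and 791 CPM, a log2 ratio of 1.37 (1.31 to 1.43), 2.12 (2.02 to 2.22) and 0.80 (0.67 to 0.93). Chodl stood at 82.4 CPM from 46 UMIs, 70.5 CPM from 14 and 15.5 CPM from 6, against 5.18, 10.6 and 6.76 CPM. Its log2 ratio was 3.99 (3.46 to 4.50) and 2.73 (1.80 to 3.56) in the younger libraries and 1.19 at P5, where the interval of −0.31 to 2.40 included 0. Npy was thus higher in these cells in each library, and Chodl at E16.5 and P1, although no Nos1 UMI was counted in them. Their Zeb2 was lower at E16.5, at 462 against 984 CPM, and at P1, at 1067 against 1431 CPM, and at P5 it was 646 against 697 CPM, a log2 ratio of −0.11 whose interval of −0.30 to 0.07 included 0. Tshz3 showed 37.6 against 153 CPM at E16.5, 146 against 274 CPM at P1 and 198 against 179 CPM at P5.

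Other pairs of members were counted in the same way, at the full depth of each cell. Depth differs between cells, and the ratios that follow are not corrected for it. Zeb1 and Tshz2 were found together in 25, 6 and 6 Lhx6 cells, which was 2.65 (1.72 to 3.91), 3.01 (1.11 to 6.54) and 5.16 (1.90 to 11.2) times the expected number. In Nos1 cells the same pair gave 1.16, 1.30 and 1.13, with intervals that all included 1. Zeb2 and Tshz3 were found together in 60 Nos1 cells at P1 and 27 at P5, which was 1.84 (1.43 to 2.32) and 3.36 (2.23 to 4.83) times the expected number. The step from 1 to 5 or more Nos1 UMIs, over which both genes become lower, falls within that class.

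Within the Nos1 cells, those with Dach1 and without Lypd1 were set beside those with Lypd1 and without Dach1, 98 against 55 cells at P1 and 27 against 221 at P5. Tshz2 stood at 222 CPM in Dach1 cells (180 to 272) and at 74.3 CPM in Lypd1 cells (47.6 to 111) at P1. At P5 the values were 244 CPM (157 to 364) and 81.2 CPM (63.2 to 103). The Dach1 cells were higher by 2.99-fold and 3.01-fold, and their E16.5 counterpart, 22 cells, held 140.0 CPM. Zeb1 did not separate them, at 98.2 and 68.1 CPM at P1 and 81.4 and 57.7 CPM at P5, with intervals of the log2 ratio of −0.25 to 1.34 and −0.79 to 1.59. Zeb2 was higher in Dach1 cells at P1, at 182 against 58.8 CPM, and stood at 61.1 against 56.5 CPM at P5. A single E16.5 cell had Lypd1 only, and no comparison was made there.

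Among Lhx6 cells without Nos1, Reln marks most Martinotti cells (MC) and Erbb4 is a marker of non-Martinotti cells (nMC), although both were also found together. Zeb2 was higher in cells with Erbb4 only than in cells with Reln only, at 1176 against 623 CPM at E16.5, 1923 against 1086 CPM at P1 and 943 against 584 CPM at P5. Tshz3 was lower in the cells with Erbb4 only than in those with Reln only, at 117 against 194, 222 against 333 and 130.3 against 207 CPM. The log2 ratio was 0.92, 0.82 and 0.69 for Zeb2 and −0.73, −0.58 and −0.67 for Tshz3, and none of these intervals included 0. Both genes that are low in Nos1 cells thus differed in opposite directions between the cells with Erbb4 only and those with Reln only. Cells with both markers held 224, 319 and 171 CPM of Tshz3, above the cells with Erbb4 only in each library. Cells with neither marker held 65.4, 161 and 172 CPM, below the cells with Erbb4 only at E16.5 and P1 and above them at P5. A low Tshz3 level was thus not particular to cells with Erbb4.

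Cxcr4, the chemokine receptor of migrating interneurons, divided the Lhx6 cells of E16.5 into 1136 with a UMI and 2133 without. Zeb2 was higher in the Cxcr4 cells, at 1208 against 857 CPM (log2 0.50, 0.46 to 0.54), and Tshz1 stood at 52.5 against 26.5 CPM (0.99, 0.77 to 1.20). Tshz2 was lower in them, at 15.8 against 47.7 CPM (−1.59, −1.90 to −1.30), as was Zeb1, at 1.02 against 5.09 CPM (−2.32, −3.69 to −1.21).

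Between the libraries, the members of the Lhx6 class went different ways. From E16.5 to P5, 0 of the 7 members that passed the filter were at least 2-fold higher, where 17.8% of 14690 genes were, and 2 were at least 2-fold lower, Tshz2 and Tshz1, where 11.8% were. Tshz2 was lower by 9.36-fold (log2 −3.23, −3.74 to −2.75) and Tshz1 by 2.81-fold (−1.49, −1.79 to −1.21). Zeb2 in Lhx6 cells was highest at P1, with a log2 ratio of 0.55 for P1 over E16.5 (0.52 to 0.58) and −1.03 for P5 over P1 (−1.08 to −0.99), and these were 0.54 and −1.14 under the stricter filter. Tshz3 stood at 0.86 for P1 over E16.5 (0.78 to 0.94) and −0.60 for P5 over P1, but these became 0.43 and 0.000261 under that filter, so a highest level at P1 depended on it. Tshz2 in Lhx6 cells stood at −1.51 for P1 over E16.5, which became −0.31, while P5 over E16.5 became −2.93. In Nos1 cells, Zeb1 was 3.07-fold higher at P1 than at E16.5 (log2 1.62, 0.72 to 2.66) and level from P1 to P5 (0.12, −0.27 to 0.50). Zeb2 in Nos1 cells stood at 0.10 for P1 over E16.5 (−0.09 to 0.29) and −1.97 for P5 over P1, which became −0.87 and −0.98 under the stricter filter. The share of Nos1 cells with 5 or more UMIs also differed between these libraries, as given above, and its part in the stage values was not tested.

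Cells with markers of the Meis2 type (Meis2, Sp8, Pbx3 and Pax6, with neither Lhx6 nor Nos1), interneurons of deep layers and white matter, held the highest levels of the rare members. The 43 such cells of E16.5 had 394 CPM of Zfhx3 (328 to 468), 188 CPM of Tshz1 (144 to 241), 145 CPM of Zfhx2 (106 to 192) and 52.3 CPM of Zfhx4 from 17 UMIs (30.5 to 83.7). Zfhx3 was found in 44.2% of them and in 0.551% of Lhx6 cells of the same library. Zeb2 and Tshz3 were low in these E16.5 cells, at 154 CPM and at 1 UMI. Zeb1 stood at 49.2 CPM from 16 UMIs in them (28.1 to 79.9). The 17 cells of this kind at P1 held 883 CPM of Tshz1 (637 to 1194), in 76.5% of cells, and 1 UMI of Zfhx3. Zeb2 was not low in them, at 862 CPM (619 to 1170) and in 70.6% of cells, and Tshz3 had 4 UMIs. Zeb1 stood at 147 CPM from 7 UMIs in these P1 cells (59.2 to 303). Both Zeb1 values lay above that of the Nos1 cells of their library, with intervals that overlapped. The 26 cells with excitatory markers at E16.5 had 221 CPM of Tshz2, from 67 UMIs in 8 cells, which is above the level of the Nos1 cells. The 26 at P1 had 113 CPM (64.7 to 184), from 16 UMIs in 3 cells, near the level of the Nos1 cells. The 22 at P5 had 41.5 CPM (11.3 to 106), from 4 UMIs in 1 cell, below the Nos1 level with intervals that overlapped.

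Over 27 groups of at least 20 cells set by markers and library, the level of Zeb1 ranged from 0 to 98.2 CPM, of Zeb2 from 25.5 to 1923 CPM, of Tshz2 from 0 to 244 CPM and of Tshz3 from 0 to 333 CPM. Zfhx2 varied least of the widely detected members, from 20.4 to 145 CPM. The Pearson correlation of log levels across the groups was −0.73 between Zeb1 and Zeb2, 0.78 between Zeb2 and Tshz3, 0.56 between Zeb1 and Tshz2 and −0.55 between Tshz2 and Tshz3. These groups come from 3 libraries, share their depth and are cut by Nos1 and Lhx6, the genes that set the class comparison above. The correlations and the likenesses that follow are thus descriptions and not independent of that comparison. Among 9004 genes, the pattern of Zeb2 was most like that of Mef2c (r = 0.92), Cdk19 (0.90) and Grm5 (0.89), and that of Zeb1 most like Gabra2 (0.90), Scn9a (0.86) and Ptn (0.86). Tshz2 was nearest to Rgma (0.84), Acrbp (0.84) and B3gat1 (0.83), and Tshz3 to Zbtb16 (0.88), Chl1 (0.87) and Kctd12 (0.87).

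**Figure D5:**
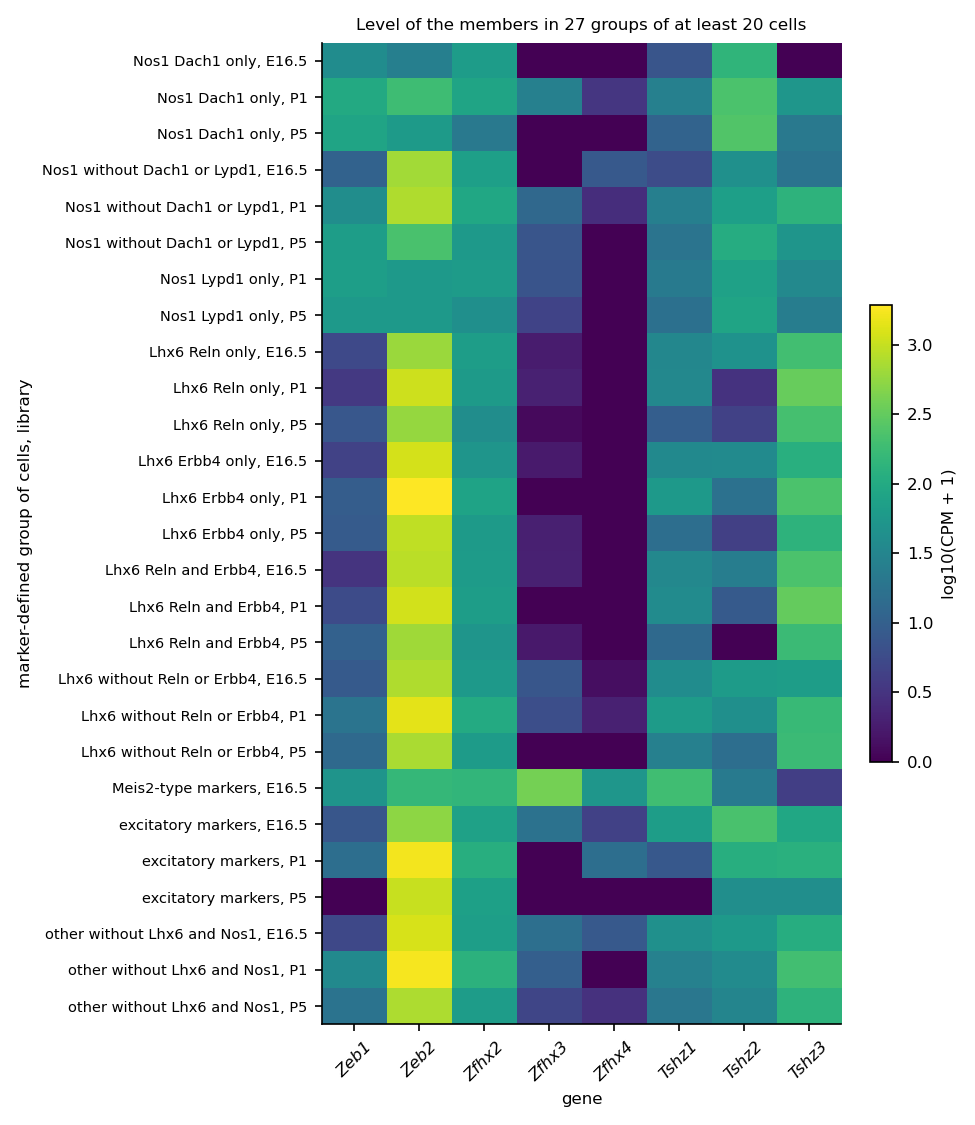
Level of the 8 members in 27 groups of at least 20 cells. Rows are marker-defined groups by library, columns are genes and the colour is log10 of CPM plus 1. Zeb2 is bright in the Lhx6 rows, where Zeb1 is dark, and Zfhx3 is brightest in the E16.5 row with Meis2-type markers, at 394 CPM.

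Genes that work with these factors were counted in the same comparison of Nos1 with Lhx6 cells. Of 16 Zeb corepressors and SMADs, 16, 16 and 15 passed the filter at E16.5, P1 and P5 and 0 were 2-fold higher or lower in any library, with medians of −0.05, 0.06 and 0.14 where those of all genes were −0.05, −0.03 and −0.07. The shares of all genes in that comparison were 6.45%, 4.33% and 4.22% higher and 8.69%, 3.72% and 7.08% lower in order of age. Smad5 (45.7 against 40.2 CPM at P1) and Rcor1 (19.3 against 20.5 CPM) were among its extremes. Of the 6 other homeobox genes of the zinc finger class, all passed and 0 were higher, with medians of −0.12, −0.22 and −0.19. Only at E16.5 was 1 counted as lower, Homez, with 0 UMIs in Nos1 cells, where a floor of 3 UMIs is 5.05 CPM, against 5.51 CPM. Of 12 epithelial genes that Zeb factors repress, 2, 2 and 1 passed, so the list was mostly not detectable at this depth. At E16.5, 1 was lower, Tjp3, with 0 UMIs in Nos1 cells, where that floor is 5.05 CPM, against 3.72 CPM. At P1, 1 was lower, Grhl2, with 0 UMIs, where the floor is 1.52 CPM, against 1.62 CPM. The exact interval of 0 UMIs includes the Lhx6 level for Homez, for Tjp3 and for Grhl2, so no direction could be read. At P5, 1 was higher, Cdh1, the E-cadherin gene, at 9.68 CPM from 19 UMIs in Nos1 cells against 0.324 CPM from 3 UMIs, and it passed the filter only with the UMIs of the Nos1 cells.

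The MGE lineage and migration genes around Zeb2 differed more. Of 16 such genes, 16, 16 and 14 passed the filter, 1 was higher in each library, and 9, 5 and 3 were lower, with medians of −1.08, −0.42 and −0.73. The shares lower among all genes were 8.69%, 3.72% and 7.08% and those higher 6.45%, 4.33% and 4.22%, with medians of −0.05, −0.03 and −0.07. The list holds Lhx6 itself, whose UMIs set the Lhx6 class and were not required of Nos1 cells. The counts are thus not independent of how the classes were cut, and the part of this choice was not tested. The 1 that was higher was Lhx8, a LIM homeobox gene of cholinergic and other MGE neurons, at 13.5, 13.2 and 9.17 CPM in Nos1 cells against 3.67, 0.874 and 0.216 CPM. At P1 and P5 it rested on 26 and 18 UMIs in Nos1 cells against 7 and 2, so it passed the filter there only with the Nos1 cells. Sox6, a factor that MGE interneurons need to settle and mature, stood at 604 against 307 CPM at P1. Ackr3, a chemokine receptor of migrating interneurons, was lower, at 18.5 against 131 CPM at E16.5 and 22.8 against 86.3 CPM at P1. Erbb4, the neuregulin receptor, was also lower, at 126 against 332 CPM at P1 and 58.6 against 171 CPM at P5.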

How the data were processed

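Reads were mapped by the authors with Cell Ranger, version 3.0.2 for P1 and 3.1.0 otherwise, on the GRCm38 genome, and they deposited whole-number UMI counts per gene and cell without normalization. The annotation and strand setting of the counting are not given in the sources used here. The 3 libraries held 4478, 4440 and 3406 barcodes and 25638779, 15654107 and 13429055 UMIs. No doublet caller was run, and an alternative left out the 5% of cells with most UMIs.

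Cells with over 700 genes and under 10% mitochondrial UMIs were kept (24632146, 10964193 and 12886663 UMIs). Within each library, the UMIs of a class of cells were summed and scaled by the class total to CPM. CPM had exact Poisson, shares exact Clopper-Pearson, and ratios exact conditional binomial 95% intervals. These cover counting error only. With 1 library per stage no p-value was computed. Ratios over all genes used CPM plus 1 and at least 10 UMIs. For single genes no pseudocount was used. Expected co-detection was the product of both shares. Likeness was Pearson's r of log2(CPM + 10) over groups of at least 20 cells, among genes that reached 20 CPM and 500 UMIs. Python 3.11.15, numpy 2.4.6, scipy 1.17.1, pandas 2.3.3 and matplotlib 3.10.9 were used, and the counting steps were tested on simulated data.

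All 8 members are named, and of each other gene list the 2 genes with the highest and the 2 with the lowest mean log2 ratio over P1 and P5 could be named. Cdh1, Tjp3 and Grhl2 were named besides, after their values were seen. The members and lists were chosen with earlier results of these data known. In all, 13 alternatives were planned, and 1, the division by 5 or more Nos1 UMIs, was added after seeing the data. Sequences came from RefSeq and GENCODE M21. Promoter entries were found for 5 of the 8 members.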

Additional observations from a re-analysis of the deposited data

Results flagged for a closer look

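With all kept cells, Tshz2 differed between the libraries in opposite directions in the Nos1 cells and the Lhx6 cells without Nos1, but the direction in Nos1 cells was lost once cells with markers of other types were left out. From E16.5 to P1 the log2 ratio was 0.57 in Nos1 cells (0.08 to 1.09) and −1.51 in Lhx6 cells (−1.82 to −1.22). From E16.5 to P5 it was 0.59 (0.10 to 1.11) and −3.23 (−3.74 to −2.75). The difference between the classes was not tested, since each stage has 1 library, and stage cannot be told apart from library and dissociation. Without cells that carried markers of excitatory or non-neuronal cells, the values for Tshz2 were 0.17 (−0.34 to 0.71) and 0.09 (−0.42 to 0.63) in Nos1 cells, both with intervals that included 0, and −1.47 (−1.78 to −1.17) and −3.17 (−3.69 to −2.70) in Lhx6 cells. With the filter of over 1000 genes and under 5% mitochondrial UMIs they were 1.03 and 0.51 in Nos1 cells and −0.31 and −2.93 in Lhx6 cells.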

How the results depend on the processing

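The number of members at least 2-fold higher in Nos1 cells at E16.5 was 1 and became 2, with Tshz2 added, with the mean of CPM per cell, without the 5% of cells with most UMIs, without cells with markers of other types, and with every cell thinned to 2000 UMIs. The number lower ranged from 2 to 4 at E16.5, with Zeb2 added when cells with markers of other types were left out, from 2 to 3 at P1 and was 2 at P5 under the alternatives run, and the number higher was 2 or 3 at P1 and P5. Co-detection of Zeb1 and Zeb2 in Lhx6 cells at P1 was 0.755 and became 0.490 in thinned cells. The ratio of Tshz3 in Lhx6 cells, P5 over P1, was −0.60 and became 0.000261 with over 1000 genes and under 5% mitochondrial UMIs. Of the alternative values of log2 ratios between classes, 188 stayed within the interval of the reported value and 41 moved outside it, and of those between libraries 251 stayed and 39 moved, beside the 1 that changed sign. The filter with over 1000 genes left 357 Lhx6 cells and 222 Nos1 cells at P1. No paired analysis was possible because each stage has 1 library and no replicate number. The 67 Nos1 cells of E16.5, with 3 to 11 UMIs of Tshz1, Tshz3 and Zeb1, set the precision of the earliest comparison, and Zfhx3 and Zfhx4 were limited by depth in every library. The cause of these changes was not tested.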
